A study of Mus musculus with 27 samples.

Results

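The results concern Dmrtb1 on mouse chromosome 4, described through the contacts of its 5′ end in capture Hi-C and through its row in a deposited regression of testis RNA on genotype. The viewpoint was the 10 kb bin that holds the 5′ end of the gene by its listed start sites, chr4:107680001-107690000 in GRCm38. With 1 bin on either side it covered chr4:107670001-107700000. Its partners were the other bins of a densely covered core, chr4:107110001-107960000. The 3 bins of the deleted span, chr4:107710001-107740000, were left out. Of the 85 bins of the core, 3 made up the viewpoint and 79 were partners, with 57 on the left of the span, the side of Dmrtb1, and 22 on the right.

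Dmrtb1 encodes a transcription factor with a DM domain, the DNA-binding fold of the Doublesex and Mab-3 family. In the testis it is made in spermatogonia and is known for its part in the passage from mitotic divisions to meiosis. Topologically associating domains are stretches of chromosome that contact themselves more than their neighbours, and the borders between them often bind CTCF, a zinc-finger protein that halts the extrusion of chromatin loops. A gene next to such a border normally shares a domain with the enhancers on its own side.

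Capture Hi-C was made from 3 wild-type testis samples and 3 samples homozygous for a deletion, made with CRISPR-Cas9, of a domain boundary (allele B396.BOS). RNA-seq covered 9 testis samples, 3 wild type, 3 heterozygous and 3 homozygous for the same allele. Strain and age are not given in the sources used here, and nothing states that replicates are separate animals, so p-values measure the spread between these samples. Whole testis mixes germ cells at all stages with somatic cells, and each contact count is a sum over them. Libraries held 5669898 to 7794641 contacts, and 385415 to 767565 of them joined bins of the core. Replicate 2 was the deepest in the core in both genotypes.

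Dmrtb1 lies on the minus strand. RefSeq (GRCm38.p6) lists start sites at 107684230 and 107683589, both in the middle bin of the viewpoint, 25.77 kb from the deleted span for the first. The RefSeq gene record runs from 107676288 to 107704011, outside the span. On the minus strand 107704011 is its upstream limit, which lies outside the viewpoint, between it and the span. The viewpoint thus follows the listed start sites and not the upstream limit of the record. A long non-coding RNA gene on the plus strand, 1700047F07Rik, starts 5.37 kb away from the first Dmrtb1 start in the same bin. It runs to 107744284, across the deleted span, so the 2 starts share every contact of that bin and cannot be separated here. The 250 bases upstream of both starts are shown because they are the promoters that the viewpoint stands for, each read 5′ to 3′ along the strand of its gene. Capitals mark the single match to a CCAAT box, searched as ATTGG on both strands.
Dmrtb1, chr4:107684231-107684480, minus strand: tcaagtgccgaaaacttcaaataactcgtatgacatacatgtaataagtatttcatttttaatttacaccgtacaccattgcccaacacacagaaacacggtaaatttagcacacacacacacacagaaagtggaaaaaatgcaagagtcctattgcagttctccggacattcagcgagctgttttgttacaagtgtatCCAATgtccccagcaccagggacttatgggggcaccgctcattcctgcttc
1700047F07Rik, chr4:107689350-107689599, plus strand: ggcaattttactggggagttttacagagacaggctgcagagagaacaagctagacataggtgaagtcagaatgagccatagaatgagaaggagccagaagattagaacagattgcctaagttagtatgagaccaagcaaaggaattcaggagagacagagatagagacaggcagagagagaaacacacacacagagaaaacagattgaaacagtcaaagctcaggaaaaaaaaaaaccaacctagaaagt
The first window is 42.4% G and C with 7 CG pairs, and the second is 41.6% with 0. The window upstream of the other Dmrtb1 start differs, with 75.6% G and C and 21 CG pairs. The medians over 32851 RefSeq promoters are 52.4% and 6. The ATTGG match is common, present in 33.8% of those promoters. None of the 3 windows matched the core of the CTCF motif (2.08% of promoters), the DM domain core, ACANTGT (6.47%), or TATAAA (12.4%), on either strand.

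In homozygotes the Dmrtb1 viewpoint lost its contacts with 2 of the 3 span bins and gave a larger part of its contacts to the bins right of the span. Contacts with chr4:107720001-107730000 numbered 282, 505 and 460 for wild-type replicates 1 to 3, against 0, 0 and 0 for the homozygous replicates. Those with chr4:107730001-107740000 were 369, 621 and 515 against 1, 3 and 3. The span bin nearest to Dmrtb1, chr4:107710001-107720000, kept 421, 775 and 565 contacts in homozygotes against 624, 927 and 824 in wild type, so the deletion begins inside it. The 3 span bins kept 69.4%, 0.178% and 0.368% of their wild-type contacts with everything outside the core. The missing length is then about 23.0 kb, if contacts spread evenly within bins and the deletion ends at the span's edge. This estimate was not checked against breakpoints. In each of the 6 libraries the loss went with the genotype label.

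The viewpoint's contacts were followed to every destination in each library. The deleted span took 2.83% ± 0.201 (SD, n = 3) of all contacts of the viewpoint in wild-type testis, against 0.988% ± 0.0107 in homozygous testis. The core right of the span took 8.18% ± 0.391 and 10.9% ± 0.661, a gain of 2.75 percentage points with no overlap between genotypes (two-sided exact permutation p = 0.1, the smallest that 3 against 3 libraries can give). Contacts inside the viewpoint were 12.8% ± 0.479 and 11.6% ± 0.494, lower by 1.22 points, again without overlap (exact permutation p = 0.1). The core left of the span took 23.5% ± 0.913 and 23.3% ± 1.09, the rest of chromosome 4 took 37.7% in both genotypes, and other chromosomes took 15.1% and 15.5%. These 3 shares overlapped between genotypes (exact permutation p = 1, 1 and 0.6), so the gain on the right went with smaller shares for the span and for the viewpoint itself.

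Within the core, the right-side share of the Dmrtb1 viewpoint rests on 14375 to 28652 contacts per library. In wild type the viewpoint had 3747, 6311 and 4820 contacts with the right side, and in homozygotes 4557, 9236 and 5993. With the left side it had 10840, 17938 and 13865, against 9818, 19416 and 12876. The right-side share of wild-type libraries was 25.7%, 26.0% and 25.8% (25.8% ± 0.173, SD, n = 3), and that of homozygous libraries 31.7%, 32.2% and 31.8% (31.9% ± 0.293, SD, n = 3). The genotypes were fully apart, and the difference of 6.06 points is many times the SD of either genotype (exact permutation p = 0.1). The differences between libraries of the same number were 6.01, 6.21 and 5.96 points. Each of the 3 viewpoint bins showed it: the share went from between 22.2% and 22.9% to between 27.2% and 27.9% in the left bin, from between 28.4% and 28.7% to between 34.2% and 35.0% in the bin with the start site, and from between 26.8% and 27.5% to between 34.8% and 35.2% in the bin nearest the span. The viewpoint's share of all core contacts was 4.88% ± 0.0258 in wild type and 5.03% ± 0.127 in homozygotes, with overlapping groups (exact permutation p = 0.2).

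**Figure D1:**
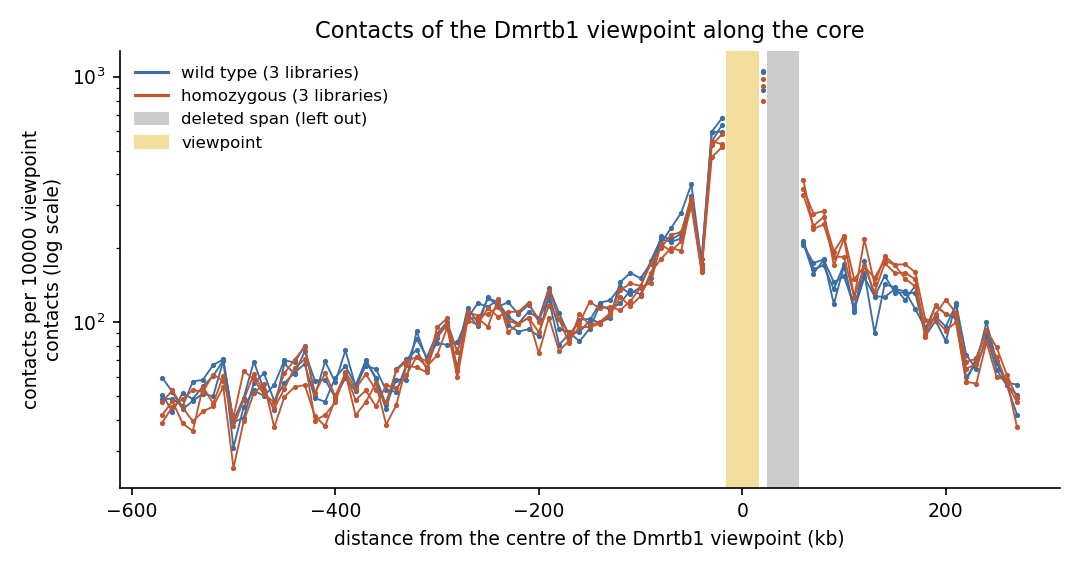
Contacts of the Dmrtb1 viewpoint with each partner bin, per 10000 viewpoint contacts in the core (log scale), against the distance from the viewpoint centre in kb; each line is 1 library, the yellow band is the viewpoint and the grey band the deleted span. Right of the span the 3 homozygous libraries lie above the 3 wild-type ones in the nearest bins, and the lines meet beyond about 200 kb.

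A deletion brings its flanks closer, and contacts fall with distance, so the contacts were also set against an expectation. For each library it was the mean count of pairs on the same side of the span at the same distance, and the ratio is given as log2 observed over expected. At reference distances the Dmrtb1 viewpoint had −0.11, −0.06 and −0.09 with the right side in wild type (−0.09 ± 0.02, SD, n = 3), slightly fewer raw contacts than same-side pairs. In homozygotes it had 0.24, 0.28 and 0.24 (0.25 ± 0.02), a difference of 0.34 with no overlap (exact permutation p = 0.1). Shortening the distances across the span by 2 bins in homozygous libraries left a difference of 0.07, and shortening them by 3 bins turned it to −0.14, both without overlap. With the estimated 23.0 kb the homozygous values were −0.08, −0.06 and −0.10, and the difference of 0.0082 lay inside the spread of the libraries (exact permutation p = 0.7). The length of 3 bins takes the span bin nearest to Dmrtb1 as wholly missing, although it kept 69.4% of its contacts. The size and sign of the difference thus rest on the length assumed. With the left side, where no distance changes, the viewpoint had −0.16 ± 0.01 in wild type and −0.21 ± 0.03 in homozygotes, lower by 0.05 on the log2 scale and without overlap (exact permutation p = 0.1). In the balanced core, where bins are scaled to equal totals, the right side had 0.02, 0.07 and 0.06 in wild type at reference distances. Homozygotes had 0.38, 0.38 and 0.40. The wild-type shortfall over the whole right side was thus seen only in raw counts, where the left side was lower still (−0.16 against −0.09). No balanced value was computed by distance across the span.

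**Figure D2:**
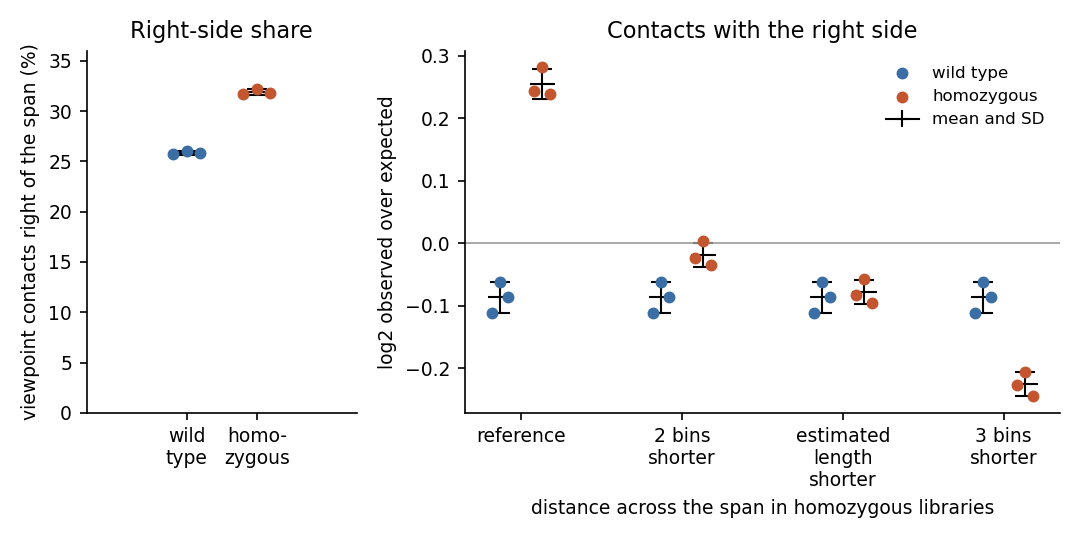
Left, percent of the viewpoint's core contacts that lie right of the span; right, log2 observed over expected of the viewpoint with the right side, with distances in homozygous libraries as in the reference or shortened. Points are libraries and bars the mean and SD of 3; the homozygous points pass from above the wild-type points at reference distances (0.25 against −0.09) to below them with 3 bins.

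By distance across the span, the difference was largest close to the deletion. Pairs of the Dmrtb1 viewpoint with right-side bins under 100 kb away had 1003, 1641 and 1281 contacts in wild type, against 1500, 3089 and 1962 in homozygotes. Their log2 observed over expected was −0.35 ± 0.01 (SD, n = 3) against 0.32 ± 0.03, a difference of 0.67. Pairs 100 to 200 kb apart had 0.07 ± 0.05 against 0.34 ± 0.05, a difference of 0.26. Both classes showed no overlap (exact permutation p = 0.1 each, 0.15 after Benjamini-Hochberg adjustment over the 3 classes). Pairs over 200 kb apart had −0.10 ± 0.01 against −0.09 ± 0.09, a difference of 0.0079 with overlap (exact permutation p = 0.9). With the estimated length the 3 differences were 0.08, 0.04 and −0.13, where the nearest and the farthest class kept the groups apart. With 3 bins they were −0.19, −0.03 and −0.17. The longest class already changed sign when homozygous replicate 3 was left out (−0.04).

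For single partner bins, edgeR's quasi-likelihood test was run over 2054 rows, each a window of 3 core bins against 1 bin, with Benjamini-Hochberg adjustment over all rows and a threshold of 0.05. The Dmrtb1 viewpoint had 3 of its 22 right-hand bins called higher in homozygotes, against 0.341% of all rows, and 0 of its 57 left-hand bins. Among the 816 rows of other windows that also lie across the span, 4 were called higher. None of its bins was called lower, as in 0% of all rows. The 3 bins are the nearest ones beyond the span. Contacts with chr4:107740001-107750000 were 301, 519 and 392 in wild-type libraries against 475, 1002 and 716 in homozygous ones, a log2 change of 0.72 (SE 0.10, adjusted p = 0.000601). This bin holds the 3′ end of 1700047F07Rik. Contacts with chr4:107750001-107760000 were 254, 399 and 295 against 355, 793 and 453, a log2 change of 0.60 (SE 0.11, adjusted p = 0.00832). Contacts with chr4:107760001-107770000 were 263, 413 and 335 against 386, 812 and 472, a log2 change of 0.58 (SE 0.11, adjusted p = 0.00832). The long non-coding RNA gene Gm12907 overlaps the last 2 bins. Replicate 2 was the highest in both genotypes in each bin, following its depth. In these raw counts homozygous replicate 1 was below wild-type replicate 2 throughout, while after scaling the genotypes did not overlap in any of the 3 bins.

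The change declined away from the span. The next smallest p-values on the right belonged to chr4:107770001-107780000, with a log2 change of 0.42 (adjusted p = 0.125 by edgeR), and to chr4:107820001-107830000 inside Lrp8, with 0.31 (adjusted p = 0.273). At an unadjusted p under 0.05, 9 right-hand bins were higher, against 8.08% of all rows. Over the 22 right-hand bins the median log2 change was 0.18, with 16 higher, against −0.01 over all 2054 rows, with 985 higher. The scaled values of the genotypes did not overlap in 10 right-hand bins that were higher, and 9.06% of all rows did the same. With distances shortened by the estimated length as an offset, the 3 called bins had log2 changes of −0.09, −0.00062 and 0.10, and edgeR called 0 viewpoint bins. At an unadjusted p under 0.05 that fit had 0 higher and 9 lower, 7 of them on the left, against 2.97% and 2.78% of all rows. DESeq2 at reference distances called 3 viewpoint bins higher and 0 lower, against 0.438% and 0.146% of all rows. Without wild-type replicate 3, edgeR called 1 viewpoint bin, higher, where 0.146% of all rows were called higher and 0% lower. Without wild-type replicate 2 it called 5 higher and 1 lower, where 3.41% of all rows were called higher and 0.925% lower.

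Libraries of the same number deviated together over the rows (correlations 0.308, 0.654 and 0.215). Wild-type 3 with homozygous 1 (0.261) and wild-type 1 with homozygous 3 (0.211) did so about as much. The sample titles give a replicate number and no pairing, so fits with the number as a block rest on an assumed pairing. With that block edgeR called 17 viewpoint bins, 9 on the right all higher and 8 on the left all lower, where 7.59% of all rows were called higher and 5.5% lower. With the block and the estimated length together it called 6, all lower: 5 on the left and 1 on the right (chr4:107890001-107900000, log2 change −0.28, adjusted p = 0.0233), where 1.9% of all rows were called higher and 4.72% lower. With the block and 2 bins it called 1 right-hand bin higher, 1 lower and 5 left-hand bins lower (2.39% of rows higher, 4.67% lower), and with 3 bins 5 on each side, all lower (1.36% and 5.16%). In the fit with the block and the estimated length 0 of the 22 viewpoint rows across the span were called higher, and 39 of the 816 such rows of other windows were.

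**Figure D3:**
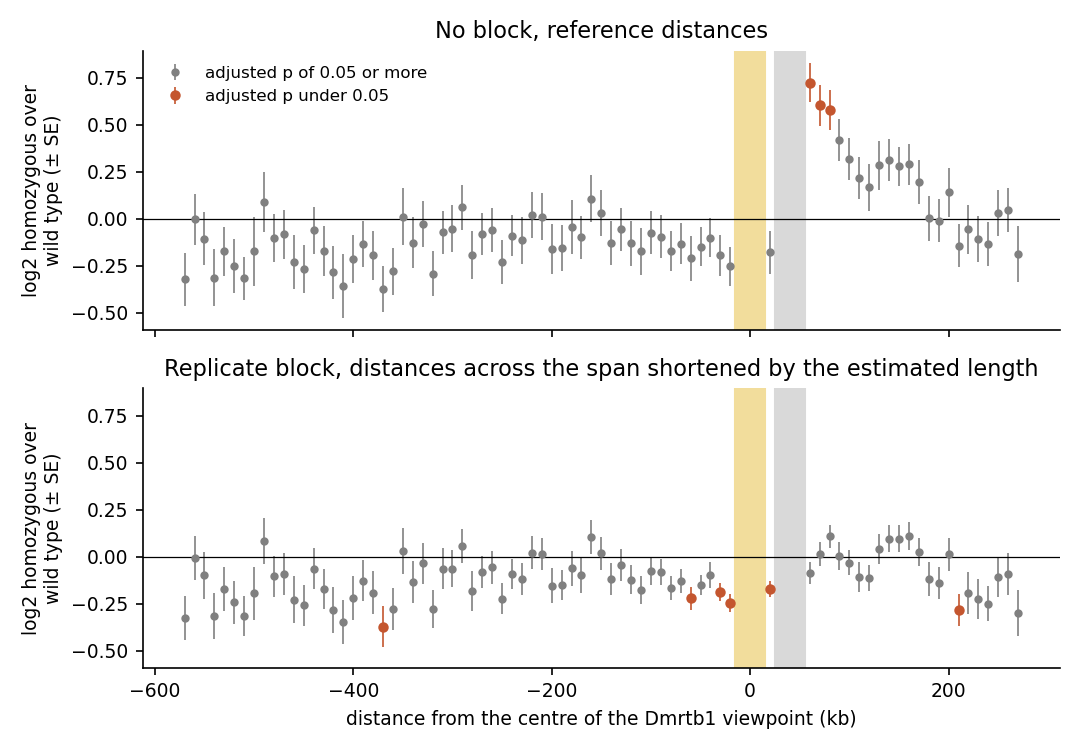
Log2 change of each partner bin of the Dmrtb1 viewpoint, homozygous over wild type, with its SE, against the distance from the viewpoint centre in kb; yellow is the viewpoint, grey the deleted span, and red points have an adjusted p under 0.05. Without a block and at reference distances (top) the 3 bins next to the span are red and higher; with the replicate block and the estimated length (bottom) 6 bins are red and all are lower.

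On its own side of the span the Dmrtb1 viewpoint had slightly lower counts in most bins after scaling within the core. As a part of all contacts of the viewpoint, the left side of the core took 23.5% in wild type and 23.3% in homozygotes, with overlap. The median log2 change over the 57 left-hand bins was −0.13, with 7 higher and 50 lower, or 48 lower when only library size was used for scaling. Over all 2054 rows the median was −0.01, with 985 higher. Scaled values did not overlap in 11 bins that were lower, where 6.67% of all rows did the same. At an unadjusted p under 0.05, 7 were lower, against 2.34% of rows. The 5 with the smallest edgeR p-values had log2 changes from −0.37 to −0.25 and adjusted p-values from 0.223 to 0.442. The best covered of them is chr4:107660001-107670000, the bin that adjoins the viewpoint at the 3′ side of Dmrtb1. Wild-type libraries had 927, 1448 and 1265 contacts there and homozygous ones 743, 1521 and 1098, a log2 change of −0.25 (SE 0.10, edgeR adjusted p = 0.395). With the replicate block the same bin passed, at −0.25 (SE 0.05, adjusted p = 5.2e-05). The bin between the viewpoint and the span, chr4:107700001-107710000, had 1545, 2144 and 1954 against 1319, 2282 and 1844 contacts, a log2 change of −0.18 (adjusted p = 0.620 by edgeR, and 0.00223 with the block).

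In wild-type raw counts, the partner bins furthest above the expectation for their distance lay around the 5′ end of Glis1 and in Ndc1. Glis1 encodes a Krüppel-like zinc-finger transcription factor and Ndc1 a membrane nucleoporin. Among bins at least 60 kb away on the left, chr4:107430001-107440000, which holds the Glis1 start site at 107434719, had an observed over expected ratio of 1.60 ± 0.093 (SD, n = 3). The Ndc1 bin chr4:107410001-107420000 followed with 1.53 ± 0.0676 and the Glis1 bin chr4:107440001-107450000 with 1.50 ± 0.0446. These 3 do not differ beyond their spread. In homozygotes they had 1.42 ± 0.169, 1.53 ± 0.0469 and 1.46 ± 0.0716. On the right the leaders were chr4:107890001-107900000 in Czib with 1.28 ± 0.0979, and chr4:107850001-107860000 and chr4:107840001-107850000 in Lrp8 with 1.24 ± 0.154 and 1.19 ± 0.0413. In homozygotes, at reference distances, the Czib bin had 1.21 ± 0.0632 and the Lrp8 bins 1.45 ± 0.113 and 1.51 ± 0.115. The bins were chosen for their wild-type values, which are a description. These ratios were not corrected for the coverage of each bin, and bins differ widely: chr4:107640001-107650000 had 0.418 ± 0.0146 in wild type. Whether coverage gives the ranking was not tested, so it does not show a preference of Dmrtb1 for these bins.

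Over whole genes, 3 of the 4 protein-coding genes right of the span had higher mean values in homozygotes at reference distances and 1 had a lower one. Lrp8 encodes a receptor of reelin and apolipoprotein E. Its bins had 1444, 2532 and 1877 contacts with the Dmrtb1 viewpoint in wild type, against 1653, 3592 and 2181 in homozygotes, and log2 observed over expected went from 0.15 ± 0.07 to 0.41 ± 0.08 (SD, n = 3). That is a difference of 0.26 without overlap (exact permutation p = 0.1, 0.562 adjusted over the 15 protein-coding genes), and 0.06 with the estimated length. Magoh, a core protein of the exon junction complex, had a difference of 0.11 (exact permutation p = 0.4). Czib, a zinc-binding protein, had 0.05 (p = 0.7), and Cpt2, a mitochondrial carnitine palmitoyltransferase, had −0.04 (p = 0.5), both by the same exact test. With the estimated length 1 of the 4 differences was positive and 3 were negative, and with 3 bins all 4 were negative.

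The 11 protein-coding genes left of the span all had lower mean values in homozygotes, with differences from −0.18 to −0.02 and a median of −0.09, and 9 of the 11 did so in the balanced core, where Tmem59 (0.03) and Ndc1 (0.0094) were higher. Only Ldlrad1, which has a low-density lipoprotein receptor domain, had no overlap between genotypes. Glis1 had 4446, 7898 and 5571 contacts with the viewpoint in wild type, against 4189, 8781 and 5226 in homozygotes, and its log2 observed over expected differed by −0.05 (exact permutation p = 0.5). The long non-coding RNA gene Gm12907, in the called bins, had the largest difference among the genes given here, 0.61 at reference distances and 0.12 with the estimated length, and −0.09 with 3 bins.

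**Figure D4:**
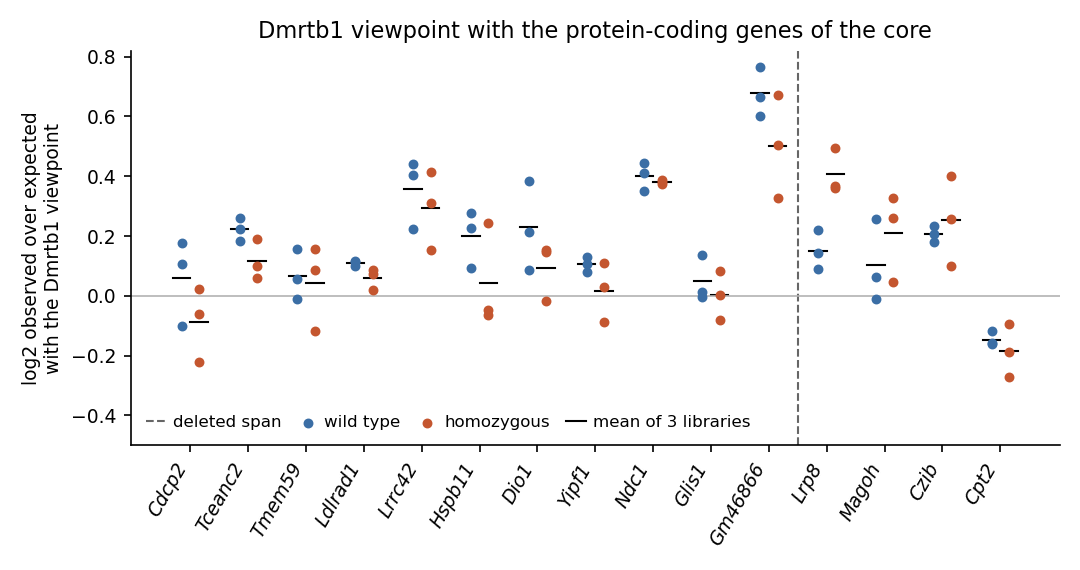
Log2 observed over expected of the Dmrtb1 viewpoint with the 15 other protein-coding genes of the core in map order at reference distances; points are libraries, short lines the mean of 3, and the dashed line marks the deleted span. Lrp8 and Ldlrad1 are the genes whose wild-type and homozygous points do not overlap.

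The right-side profile of Dmrtb1 over the 6 libraries was compared with that of the other protein-coding genes on its side, of which 9 of 11 have a start site in the promoter table. The closest was Dio1, an iodothyronine deiodinase, with a root mean square difference of 0.145 in log2 observed over expected. Ndc1 followed with 0.149, and Hspb11, named after the small heat shock proteins, with 0.162. Lrrc42 shares the bins of Hspb11 and thus its value. Dio1 went from −0.08 ± 0.08 to 0.07 ± 0.05 and Ndc1 from −0.15 ± 0.05 to 0.07 ± 0.04. The Glis1 start was the farthest, with Gm46866 in the same bins, at 0.353.

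The Glis1 viewpoint, chr4:107420001-107450000, had 0.35, 0.26 and 0.26 with the right side in wild type, against 0.53, 0.69 and 0.51 in homozygotes, so it lay above Dmrtb1 in all 6 libraries. The difference of Dmrtb1 from Glis1 was −0.37 ± 0.07 in wild type and −0.32 ± 0.08 in homozygotes (SD, n = 3), and it did not differ beyond the spread between genotypes (0.05, exact permutation p = 0.5). With distances shortened by the estimated length the change in that difference was −0.23, with 2 bins −0.18 and with 3 bins −0.37, each without overlap (exact permutation p = 0.1).

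In RNA, Dmrtb1 had the smallest p-value of the 6 genes near the deletion in the authors' deposited table, which regresses each gene on a variable named for the CRISPR deletion over wild-type, heterozygous and homozygous testis. The authors' deposited table gives Dmrtb1 a slope of 81.6, a t statistic of 2.90, a p-value of 0.0229 and an FDR of 0.137, so it did not pass 0.05 after their adjustment. From these values the slope has a standard error of 28.1 and a 95% interval of 15.1 to 148 with 7 degrees of freedom. How expression was scaled and how genotypes were coded is not given in the sources used here. The sign is therefore that of the deposited variable, and the levels in each genotype were not analysed here. A positive sign was not particular to Dmrtb1: of the 566 distant genes that the authors list, 538 had a positive slope too. In whole testis, more or fewer cells that make Dmrtb1 and more or less of its RNA per cell cannot be told apart.

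The other genes in the authors' deposited table had slopes whose intervals contain 0. Lrp8 had a slope of 1.25 (p = 0.590), Glis1 0.0850 (p = 0.663), 4933424M12Rik 0.109 (p = 0.493) and Lrp8os3 −0.00912 (p = 0.826), all in the authors' deposited table, and Gm12907 had a p of 1. Gm12907 and Lrp8 are thus among the genes whose contacts with the Dmrtb1 viewpoint were higher at reference distances, and neither had a p under 0.05.

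**Figure D5:**
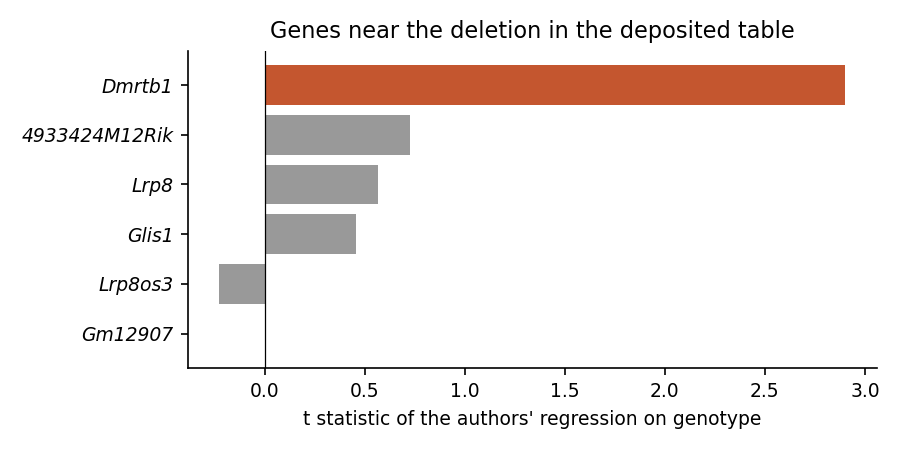
T statistic of the authors' regression on genotype for the 6 genes near the deletion, 1 bar a gene, from the deposited table. Dmrtb1 has 2.90, and the bars of the other genes lie between −0.23 and 0.72.

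Genes that work with or beside Dmrtb1 were looked up in the authors' deposited table of distant genes, which lists 566 genes of the 35970 tests that its FDR values imply (1.57%), those with a p-value up to 0.00998. It lists 0 of 8 other DMRT family genes, 0 of 16 genes of spermatogonial differentiation and 0 of 22 meiosis genes, and Meiosin, also on that list, matched no symbol of the gene table at hand. It lists 0 of the 4 spermatogonia, 4 spermatocyte, 5 round spermatid and 5 late spermatid markers. Of somatic markers it lists 0 of 7 for Sertoli cells, 5 for Leydig cells, 3 for peritubular cells, 3 for macrophages and 2 for endothelial cells. The lists hold only a choice of genes. Ybx2 and Ldha, which are in none of them, are listed with slopes above that of Dmrtb1, 167 and 86.3 (FDR 0.631 for both in the authors' regression). A gene that is not listed has no value here, so the lists give no measure of the cell makeup of the samples. The part of cell makeup in the Dmrtb1 slope was not tested.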

How the data were processed

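Members and gene lists were chosen with earlier results of these data known. Capture Hi-C used an Arima kit, with capture by Agilent SureSelect, per the labels' protocols. The deposited contact files hold raw counts per pair of 10 kb bins, on mm10 per the submitters' processing notes. Alignment, filters and binning are not given in the sources used here. A file's name, by genotype and number, gave its sample. The deposited Matrix eQTL tables give a t statistic and a slope (scores) and p-values with FDR; the p-values follow from t with 7 degrees of freedom. STAR and mm10 are named for RNA in the submitters' processing notes. ChIP-seq was not analysed here.

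Counts were summed per library. Expected counts came from same-side core pairs at the same distance, extrapolated on log axes beyond the longest. Values were compared with two-sided exact permutation tests over 20 arrangements of 3 against 3 libraries (smallest p 0.1), and same-numbered differences with sign flips (smallest p 0.25). Windows of 3 bins against single bins (mean count 5 or more) entered edgeR 4.0.16 (quasi-likelihood, TMM, Benjamini-Hochberg over 2054 rows, in R 4.3.3); a contact between 2 windows enters 2 rows. DESeq2 1.42.0 was an alternative. The scripts were tested on simulated data. Libraries of the same number deviated together over the rows (correlations 0.308, 0.654 and 0.215), each above the 0.1 used as criterion. Wild-type 3 with homozygous 1 (0.261) and wild-type 1 with homozygous 3 (0.211) pass it too, so it cannot establish pairing by number. Mainly replicate 2 stood apart. Named bins were the 3 with the highest wild-type ratio at least 60 kb away and the 5 with the smallest edgeR p on each side; named genes were those right of the span, Glis1, and the 3 most like Dmrtb1. Other genes and bins were named after their values were seen. Motifs other than that of CTCF were also added after the data were seen. Promoters are from RefSeq on GRCm38.p6.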

Additional observations from a re-analysis of the deposited data

How the results depend on the processing

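Of 211 recomputed values other than counts of bins, leaving out the replicate block, 184 kept their direction and 27 reversed. The right-side share of the viewpoint (6.06 points) held between 5.89 and 6.16 when each library was left out in turn, and was 6.06 with the replicate block (exact sign-flip p = 0.25). The log2 difference with the right side ranged from 0.33 to 0.35 and that with the left side from −0.06 to −0.03 over left-out libraries, and the share of core contacts from 0.109 to 0.227 points. The latter was −0.0244 with a viewpoint of 1 bin. Distance classes ranged from 0.66 to 0.69, from 0.24 to 0.29 and, for the longest, from −0.041 to 0.050. The difference from Glis1 ranged from 0.01 to 0.10. For such differences of means the block gives the same value by construction.

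Shortening the distance reversed most right-side values, as its construction raises the expectation. With 3 bins the right side had −0.14 (also in the balanced core, −0.14, added after seeing the data), the classes −0.19, −0.031 and −0.17, and the difference from Glis1 −0.37. With 2 bins the longest class had −0.11 and the difference from Glis1 −0.18; with the estimated length they had −0.13 and −0.23. Single genes reversed as follows: Lrp8 −0.0070 with 3 bins; Magoh −0.0065, −0.057 and −0.022 and Czib −0.085, −0.14 and −0.10 with 2 bins, 3 bins and the estimated length. Small differences also changed sign without 1 library, for which the cause was not tested: over left-out libraries Czib ranged from −0.029 (without homozygous replicate 3) to 0.12, Cpt2 from −0.083 to 0.0055, Lrrc42 from −0.13 to 0.0062 and Tmem59 from −0.083 to 0.054 (the upper values without homozygous replicate 2; Tmem59 also had 0.019 without wild-type replicate 3), and Ndc1 from −0.046 to 4.1e-05 (without wild-type replicate 1). In the balanced core, added for genes after seeing the data, Tmem59 had 0.028 and Ndc1 0.0094.

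Called viewpoint bins (3) ranged from 1 to 6 over left-out libraries. They were 17 of 79 with the replicate block (269 of all 2054 rows), and, on another denominator, 19 of 237 single bin pairs with it (123 of all 3321; added after seeing the data). Offsets for 2 bins, 3 bins and the estimated length gave 0 each (0, 1 and 0 of all 2054 rows). With the replicate block they gave 7, 10 and 6 (145, 134 and 136 of all 2054 rows). At an unadjusted p under 0.05 the estimated length had 9, where 2.97% of all rows were higher and 2.78% lower. The unadjusted counts for 2 and 3 bins, 9 and 13, have no share over all rows to be set against. The overall right-side difference was negative only with 3 bins, a length that counts the nearest span bin as missing although it kept 69.4% of its contacts. With a viewpoint at the upstream limit of the gene record, chr4:107690001-107710000, added after seeing the data, the right-side difference was 0.50 at reference distances. That viewpoint was not recomputed with shortened distances. The unadjusted p of the Dmrtb1 slope is 0.0229. With 3 libraries a genotype, no permutation test could pass 0.05.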
